A study of Homo sapiens with 2 samples.

Results

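The proteasome genes described here are the protein-coding genes whose symbols start with PSMA, PSMB, PSMC, PSMD, PSME, PSMF or PSMG followed by a digit, taken wherever one of them was the nearest gene of an open chromatin peak. Of 50 such genes in the RefSeq gene table, 41 were the nearest gene of at least 1 peak, with 236 of the 56159 peaks of the series. Open chromatin was measured by FAIRE-seq, which sequences the DNA that stays free of protein when cells are fixed and sonicated. The cells were HepG2, an established human liver cancer cell line. Lentivirus had given them a hairpin RNA, which was scrambled in the control cells and directed against the orphan nuclear receptor NR2E3 in the NR2E3-depleted cells, so the depleted cells carry a knockdown although the lists are named as knockout. Both groups therefore had lentivirus and a hairpin, and both were grown in the same medium. Each group had 1 library, so no test between the groups was possible. A gene or peak seen in 1 library is reported as a difference between 2 libraries, which cannot be told apart from a difference between the treatments.

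The proteasome degrades proteins that carry ubiquitin. Its 20S core is a stack of alpha rings, which gate the entrance, and beta rings, which hold the proteases. The 19S particle has a base, with the ATPases that unfold substrates, and a lid, which removes ubiquitin. Transcription of the subunit genes is known to rise together when proteasome activity is short, through the factor NFE2L1. Both NFE2L1 and the related NFE2L2 bind antioxidant response elements with small MAF proteins.

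The deposited peaks form 3 lists, of 14368 peaks common to both libraries, 16236 specific to the control library and 25555 specific to the NR2E3-depleted library. A promoter peak is one that the deposited annotation classed as promoter-TSS, where TSS is a transcription start site. The common and control-specific scores were whole multiples of 0.407 and the depleted-specific scores of 0.507, so that each score could be read as a number of sequenced tags. The common list is thus on the control scale, and how many tags its peaks held after depletion was not analysed here. The depths that these steps imply are 24.6 M tags for the control and 19.7 M for the NR2E3-depleted library, where M stands for mega and scores are taken to be scaled to 10 M tags. NR2E3 itself was the nearest gene of 1 peak, which was depleted-specific and outside its promoter, and FAIRE does not measure its transcript, so the depletion was not checked here. Of 12 hepatocyte marker genes, 11 were the nearest gene of a peak and 7 had a common promoter peak, while ALB, TTR, FGB and AFP had no promoter peak. Of 6 blood, stromal and endothelial markers, 4 were the nearest gene of a peak and none had a promoter peak. Over all 20037 protein-coding genes, 15.0% had a common promoter peak, and 10676 protein-coding symbols were the nearest gene of some peak.

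The sequences below show what kind of promoter lies under these peaks. The first 7 lie in depleted-specific promoter peaks of 20S and 19S subunits, and the last 3 in the highest-scoring common promoter peaks. Each is the part of the peak within 150 bases upstream of the listed TSS, read 5′ to 3′ on the strand of the gene from hg38, and overlaps annotated exons by at most 30 bases. Capitals mark matches, on either strand, to GGGCGG (the Sp1 box), CCAAT (NFY), CCGGAAG (ETS factors), TGANNNNGC and the NRF1 consensus. TGANNNNGC is a loose form of the antioxidant response element, so a match need not be such an element. NRF1 is here the nuclear respiratory factor, and not NFE2L1.
PSMB1 (depleted-specific, chr6:170553308-170553457, minus strand): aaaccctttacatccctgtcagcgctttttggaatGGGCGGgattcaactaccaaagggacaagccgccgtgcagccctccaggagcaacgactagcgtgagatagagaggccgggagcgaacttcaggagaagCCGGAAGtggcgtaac
PSMB2 (depleted-specific, chr1:35641561-35641676, minus strand): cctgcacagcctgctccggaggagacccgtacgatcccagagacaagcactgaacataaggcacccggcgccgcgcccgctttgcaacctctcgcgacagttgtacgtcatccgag
PSMB4 (depleted-specific, chr1:151399423-151399554, plus strand): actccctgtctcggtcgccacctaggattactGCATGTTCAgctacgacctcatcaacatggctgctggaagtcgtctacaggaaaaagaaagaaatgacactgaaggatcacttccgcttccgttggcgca
PSMC1 (depleted-specific, chr14:90256403-90256552, plus strand): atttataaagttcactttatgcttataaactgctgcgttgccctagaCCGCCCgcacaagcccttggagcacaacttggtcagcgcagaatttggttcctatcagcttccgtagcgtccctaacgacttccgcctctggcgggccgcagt
PSMC6 (depleted-specific, chr14:52707050-52707173, plus strand): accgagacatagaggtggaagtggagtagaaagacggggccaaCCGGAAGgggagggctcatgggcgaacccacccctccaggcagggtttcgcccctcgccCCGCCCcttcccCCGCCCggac
PSMD2 (depleted-specific, chr3:184299091-184299186, plus strand): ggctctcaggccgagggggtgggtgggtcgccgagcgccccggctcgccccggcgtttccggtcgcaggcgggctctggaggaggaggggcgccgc
PSMD4 (depleted-specific, chr1:151254584-151254733, plus strand): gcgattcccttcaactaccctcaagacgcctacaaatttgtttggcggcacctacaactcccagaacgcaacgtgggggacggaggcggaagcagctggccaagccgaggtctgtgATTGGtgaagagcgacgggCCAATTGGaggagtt
PSMA6 (common, chr14:35292167-35292316, plus strand): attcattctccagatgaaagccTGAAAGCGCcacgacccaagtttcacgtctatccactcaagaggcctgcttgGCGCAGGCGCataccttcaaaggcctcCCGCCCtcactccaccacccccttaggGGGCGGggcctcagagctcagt
PSMB5 (common, chr14:23035221-23035360, minus strand): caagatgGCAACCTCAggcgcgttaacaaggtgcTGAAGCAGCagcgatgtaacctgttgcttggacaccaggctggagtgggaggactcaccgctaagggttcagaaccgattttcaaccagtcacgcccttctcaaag
PSMB3 (common, chr17:38752591-38752740, plus strand): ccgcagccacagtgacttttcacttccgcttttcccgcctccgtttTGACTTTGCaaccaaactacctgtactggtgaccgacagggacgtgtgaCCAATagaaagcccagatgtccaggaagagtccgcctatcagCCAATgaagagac
The stretch of PSMD4 held CCAAT boxes in both orientations, that of PSMC6 held Sp1 and ETS letters, and those of PSMB2 and PSMD2 held none of the motifs. The whole peak of PSMD2 held 3 Sp1 boxes, all outside the printed stretch, and that of PSMB2 held none of the motifs.

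Promoters of proteasome genes were listed as open more often than those of protein-coding genes at large in both libraries, and more of them in the NR2E3-depleted library. A common promoter peak was listed for 22 of the 50 genes, against 15.0% of all 20037 protein-coding genes. A control-specific promoter peak was listed for 4 genes (against 3.73% of all genes) and a depleted-specific one for 13 (26.0%, against 11.9%). Counted by library, promoter peaks covered 23 genes (46.0%) in control cells and 33 (66.0%) in NR2E3-depleted cells, where the background was 18.1% for the control and 26.1% for the NR2E3-depleted library. The remaining 16 genes (32.0%) had no promoter peak in any list, compared with 71.2% of all genes.

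By the listed gene names, the excess of the depleted library was close to the same in the proteasome genes and in the genome. The depleted library listed 1.43 times as many proteasome genes with a promoter peak as the control library, and 1.44 times as many protein-coding genes. Depleted-specific promoter peaks were found at 3.25 times as many proteasome genes as control-specific ones, and at 3.20 times as many protein-coding genes. Depleted-specific promoter peaks alone were listed for 11 proteasome genes (22.0%, against 10.7% of all genes), and control-specific ones alone for 1 gene, PSMB11 (2.00%, against 2.70%). Among the 34 proteasome genes with any promoter peak, these 11 made up 32.4%, compared with 37.1% of the 5762 protein-coding genes with one.

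**Figure D1:**
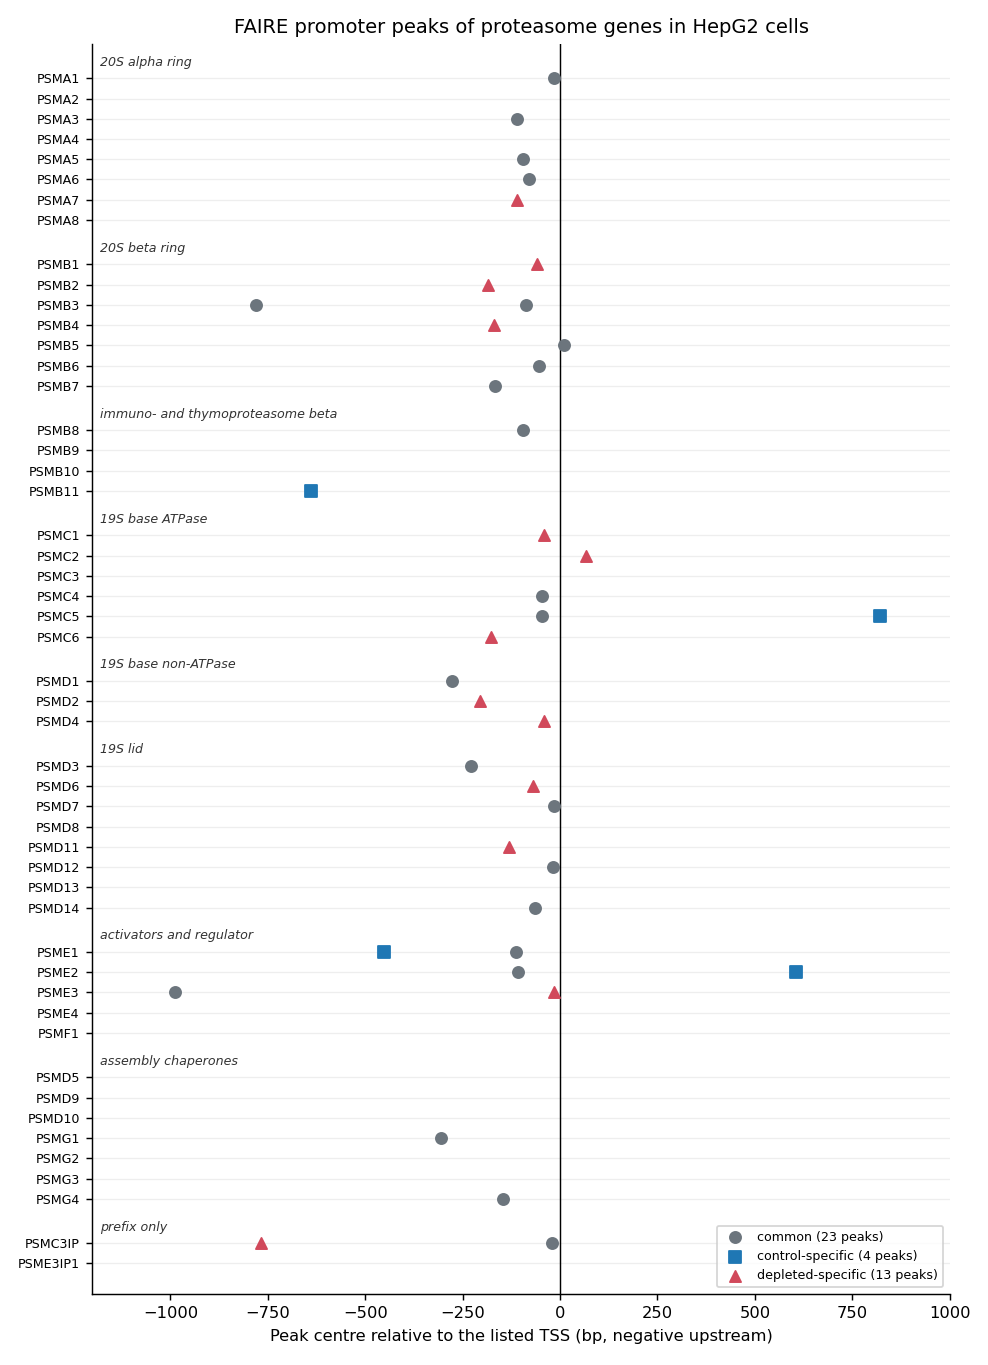
Promoter peaks of the 50 genes, 1 row per gene grouped by subcomplex, placed by the distance in bp of the peak centre from the listed TSS (negative upstream). Grey circles are the 23 common peaks, blue squares the 4 control-specific and red triangles the 13 depleted-specific peaks. Apart from the peak of PSMC3IP, the depleted-specific peaks lie within 205 bp of the TSS, while the control-specific peaks lie 451 to 820 bp away.

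Of the 31 constitutive subunits of the 20S core and the 19S particle, 15 (48.4%) had a common promoter peak, 11 (35.5%) a depleted-specific one and no other, and 5 (16.1%) none. Only PSMC5 had a control-specific promoter peak, beside a common one. The control library thus held a promoter peak at 15 of the 31 genes and the NR2E3-depleted library at 26 (83.9%), a ratio of 1.73, compared with 1.44 for all protein-coding genes. Counted by MANE Select starts, the main transcript starts in GENCODE, the same genes gave 19 and 28, a ratio of 1.47, where all genes gave 1.42. Ribosomal protein genes are another large set that is transcribed in every growing cell. By listed gene names they gave ratios of 1.21 (43 and 52 of 81 cytoplasmic genes) and 1.33 (33 and 44 of 77 mitochondrial genes). The ribosomal sets were not recounted by MANE Select starts. These ratios rest on 1 library a group, and the differences between the gene sets were not tested.

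**Figure D2:**
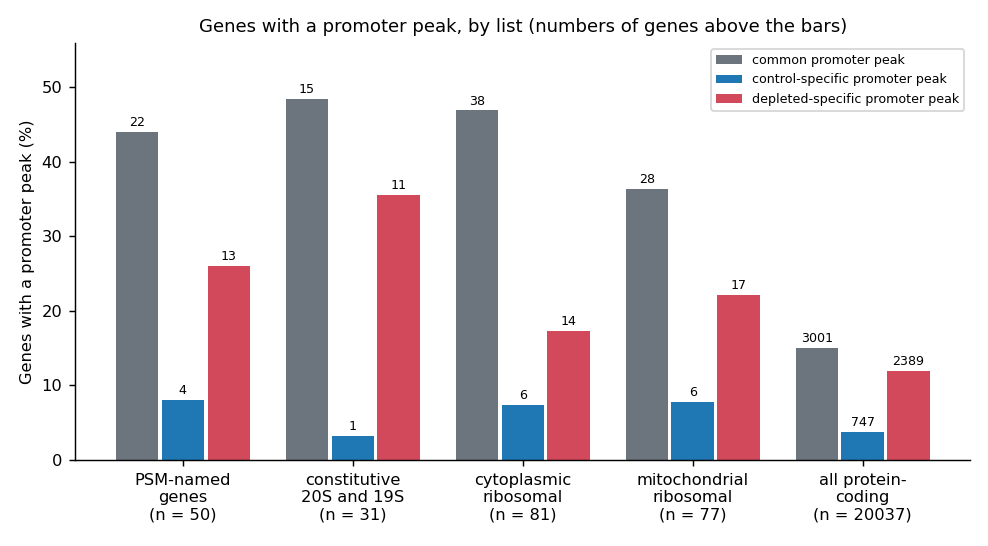
Share of genes (%) with a promoter peak in the common (grey), control-specific (blue) and depleted-specific (red) list, for the PSM-named genes, the constitutive 20S and 19S subunits, both sets of ribosomal protein genes and all protein-coding genes, with the number of genes above each bar. The constitutive subunits reach 35.5% in the depleted-specific list and 3.23% in the control-specific list.

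In the 20S alpha ring, 4 of 8 genes had a common promoter peak (PSMA1, PSMA3, PSMA5, PSMA6) and PSMA7 had a depleted-specific one. The peak of PSMA6 was the highest of all proteasome promoter peaks, with a score of 19.1 from 47 tags (95% Poisson interval 34.5 to 62.5) at chr14:35292088-35292388, and its centre lay 79 bp upstream of the TSS. Only 0.288% of protein-coding promoter peaks in the common list, over all chromosomes, reached this score. PSMA6 lies on chromosome 14, which carried many more listed peaks than most, and a rank within that chromosome was not computed. The peak of PSMA1, centred 15 bp upstream of the TSS, was among the lowest, with a score of 5.69 from 14 tags (7.65 to 23.5). The depleted-specific peak of PSMA7, 110 bp upstream, held the fewest tags of any proteasome promoter peak, 10 (4.80 to 18.4), and its promoter class was given for a transcript of SS18L1, the neighbour on the other strand. No peak had PSMA2, or PSMA8, the testis form of an alpha subunit, as its nearest gene, and PSMA4 had none at its promoter.

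All 7 constitutive genes of the beta ring had a promoter peak in the depleted library, and 4 of them in the control library. The common peak of PSMB5, the chymotrypsin-like protease and target of proteasome inhibitor drugs, had a score of 16.7 from 41 tags (29.4 to 55.6). Over all chromosomes, 0.736% of protein-coding common promoter peaks reached it, and PSMB5 also lies on chromosome 14. The other proteases, PSMB6 (caspase-like) and PSMB7 (trypsin-like), also had common promoter peaks, with 15 and 16 tags. PSMB3, which carries no active site, had a pair of common promoter peaks, 88 bp upstream with 30 tags (20.2 to 42.8) and 781 bp upstream with 14 tags. The genes with depleted-specific promoter peaks, PSMB1, PSMB2 and PSMB4, all encode beta subunits without an active site. Their peaks held 14 tags (7.65 to 23.5), 16 tags (9.15 to 26.0) and 13 tags (6.92 to 22.2), and lay 60, 185 and 169 bp upstream. The sequences of these peaks upstream of the TSS are printed above.

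The inducible beta subunits, which replace the constitutive proteases in immune cells or in thymus, showed a different layout. PSMB8 had a common promoter peak with 20 tags (12.2 to 30.9), and PSMB9 and PSMB10 had none by the rule. PSMB11, the thymus form, had a control-specific promoter peak 638 bp upstream with 13 tags (6.92 to 22.2). A depleted-specific peak, classed as intergenic, lay 506 bp from it, so both libraries had a peak upstream of PSMB11.

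Of the 6 ATPases of the 19S base, PSMC4 and PSMC5 had common promoter peaks, PSMC1, PSMC2 and PSMC6 depleted-specific ones, and PSMC3 had no peak. The common peaks held 20 tags (PSMC4) and 16 tags (PSMC5), and both were centred 46 bp upstream of the TSS. The depleted-specific peaks held 13 tags at PSMC1 (6.92 to 22.2), 11 at PSMC2 (5.49 to 19.7) and 15 at PSMC6 (8.40 to 24.7). PSMC2 was not listed for the depleted library alone, since a control-specific peak with 13 tags, classed as intronic, lay 347 bp downstream of its depleted-specific peak. The control-specific promoter peak of PSMC5, with 14 tags, lay 820 bp downstream of its TSS and was classed as the promoter of FTSJ3, the adjacent gene.

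In the rest of the base, PSMD1, a large scaffold subunit, had a common promoter peak with 21 tags (13.0 to 32.1). PSMD2, the other scaffold and docking site for ubiquitin carriers, had a depleted-specific promoter peak with 18 tags (10.7 to 28.4), 205 bp upstream. PSMD4, a ubiquitin receptor, had the highest score of the depleted-specific proteasome promoter peaks, 9.63 from 19 tags (11.4 to 29.7) at chr1:151254543-151254843, 41 bp upstream. Of protein-coding promoter peaks in that list, 11.9% scored as high. Of the 8 lid genes, PSMD3, PSMD7, PSMD12 and PSMD14 had common promoter peaks, with 28, 16, 18 and 18 tags. PSMD14 is the lid enzyme that cleaves ubiquitin from substrates. PSMD6 and PSMD11 had depleted-specific promoter peaks with 11 tags (5.49 to 19.7) and 18 tags (10.7 to 28.4), 69 and 130 bp upstream, and PSMD8 and PSMD13 had none.

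**Figure D3:**
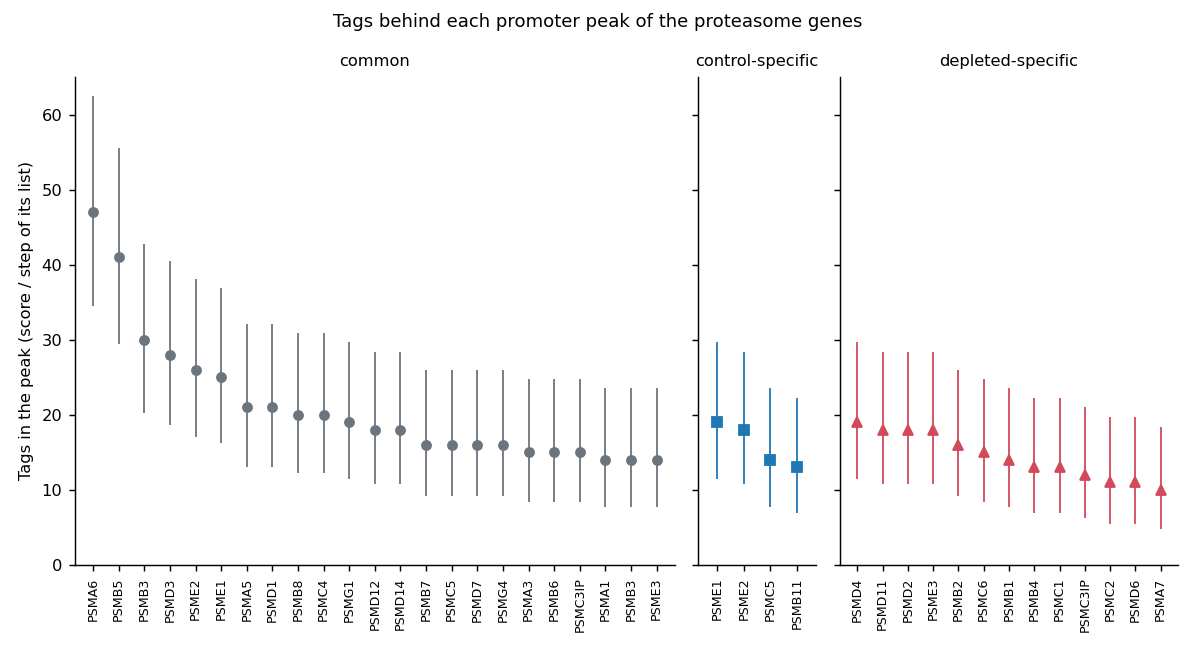
Number of tags (score divided by the step of its list) behind each of the 40 promoter peaks of the proteasome genes, sorted within the common, control-specific and depleted-specific lists. Bars are exact 95% Poisson intervals and cover counting error only. Common peaks run from 14 to 47 tags and depleted-specific peaks from 10 to 19, on libraries of different depth.

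Of the 5 genes with promoter peaks in more than 1 list, 3 were activators (PSME1, PSME2 and PSME3), and the others were PSMC5 and PSMC3IP. PSME1 and PSME2 encode the subunits of an activator that interferon induces, and they lie near each other on chromosome 14. Each had a common promoter peak, with 25 tags (16.2 to 36.9) 112 bp upstream of PSME1 and 26 tags 108 bp upstream of PSME2. Each also had a control-specific one, with 19 tags (11.4 to 29.7) 451 bp upstream of PSME1 and 18 tags (10.7 to 28.4) 606 bp downstream of the TSS of PSME2. The promoter class of both PSME2 peaks was given for transcripts of RNF31, which starts nearby. PSME3, the nuclear activator, had the reverse arrangement, with a depleted-specific peak of 18 tags (10.7 to 28.4) 16 bp upstream and a common peak of 14 tags 987 bp upstream. PSME4, an activator found in nuclei, and PSMF1, a regulator that binds the 20S core, had no promoter peak under their own names, but had peaks at their starts that were named for neighbours, described below with the MANE Select starts.

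Of the 7 assembly chaperones, PSMG1 and PSMG4 had common promoter peaks, with 19 and 16 tags, and the other 5 had none. PSMG1 and PSMG4 help to build the alpha ring, while PSMD5, PSMD9 and PSMD10 help to build the base. A pair of genes enters by name alone. PSMC3IP, a meiotic recombination protein, had a common promoter peak with 15 tags and a depleted-specific one with 12 tags (6.20 to 21.0), 767 bp upstream. PSME3IP1, a partner of PSME3, is listed under its older name FAM192A and is therefore not found by the rule. Under that name the lists hold a common promoter peak with 35 tags (24.4 to 48.7), 100 bp upstream of its MANE Select start, and a control-specific intronic peak with 14 tags. The other 8 genes that were the nearest gene of no peak were PSMA2, PSMA8, PSMC3, PSMD5, PSMD10, PSMD13, PSMG2 and PSMG3.

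The scores of the promoter peaks were those of promoter peaks in general. The median common promoter peak of the proteasome genes held 18 tags and that of all protein-coding genes 17, and both medians were 14 in the depleted-specific list. A centre within 250 bp of the TSS was found for 19 of 23 common peaks (82.6%, against 83.9% of all protein-coding ones) and for 12 of 13 depleted-specific peaks (92.3%, against 80.0%). None of the 4 control-specific promoter peaks had a centre that close, compared with 64.7% of all control-specific ones. Their median GC content was 47.8%, against 58.5% in all control-specific protein-coding promoter peaks, whereas it was 60.8% in the common and 57.1% in the depleted-specific promoter peaks of these genes. The control-specific promoter peaks thus lay at the flanks of promoters, and 3 of the 4 had a peak of the depleted library within 1000 bp (27.9% of all control-specific protein-coding ones did). The same held for 4 of 13 depleted-specific promoter peaks (30.8%, against 11.3% of all protein-coding ones), those of PSMB1, PSMC2, PSMC3IP and PSME3. The 3 control-specific peaks, of PSMB11, PSME1 and PSME2, lie on chromosome 14. PSMB1, PSMC3IP and PSME3 lie on chromosomes 6 and 17, and PSMC2 on chromosome 7. Chromosomes 6, 14 and 17 carried many more listed peaks than most, whereas both backgrounds cover all chromosomes.

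The listed gene names hide some open starts, because a peak between a pair of divergent genes is named for 1 of them. When a peak was instead assigned to every gene whose MANE Select start lay within 1000 bp, 29 of 50 proteasome genes had a common peak (against 18.8% of 19061 genes). By this count 7 of the 50 had a control-specific peak (against 4.93% of all genes) and 15 of the 50 a depleted-specific one (against 15.1%). The control library then had a peak at 32 proteasome genes (64.0%, against 22.6% of all genes) and the depleted library at 40 (80.0%, against 32.2%). The depleted library thus listed 1.25 times as many proteasome genes as the control library, against 1.42 times as many of all genes. No peak was found for 9 proteasome genes. PSMA2 gained a common peak named for MRPL32, 191 bp upstream of its start with 19 tags, and PSMD9 one named for HPD with 16 tags. PSMB9, which shares a divergent promoter with the peptide transporter gene TAP1, gained a control-specific peak with 21 tags (13.0 to 32.1) and a depleted-specific one with 14 tags (7.65 to 23.5), 432 and 124 bp upstream. PSMD8 gained a common peak with 24 tags that the deposited annotation classed as exonic, and PSME4 one with 16 tags named for ACYP2. PSMF1 gained a common peak with 13 tags (6.92 to 22.2) 148 bp upstream and a depleted-specific one with 12 tags (6.20 to 21.0) 564 bp upstream, both named for LOC105372493 and classed as the promoter of PSMF1. PSMB1, by contrast, was no longer depleted-specific alone, because a common peak with 23 tags, named for TBP, lay 853 bp upstream of its start.

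The chromosomes with most peaks held most of these promoter peaks. Chromosomes 2, 6, 14, 16, 17 and 20 carried many more listed peaks than the others, and 28 of the 50 genes lie on them. There, 18 of the 28 proteasome genes had a promoter peak in the control library and 22 in the depleted library (30.6% and 37.0% of 5468 protein-coding genes). On the other chromosomes, 5 of 22 had one in the control library and 11 in the depleted library (13.4% and 22.0% of 14569 genes). Of the 31 constitutive subunits, 16 lie on the peak-rich chromosomes, and all 16 had a promoter peak in the depleted library and 11 in the control library. The other 15 gave 10 and 4. Depleted-specific promoter peaks occurred in both parts, at PSMA7, PSMB1, PSMC1, PSMC6 and PSMD11 on the peak-rich chromosomes, and at PSMB2, PSMB4, PSMC2, PSMD2, PSMD4 and PSMD6 elsewhere. The part of copy number in these counts was not tested.

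Most proteasome peaks lay outside promoters, and most of those lay around PSMA6. Outside promoters there were 57 common, 66 control-specific and 73 depleted-specific proteasome peaks, and PSMA6 was the nearest gene for 38, 38 and 40. Over all protein-coding genes, the peaks outside promoters numbered 7900 common, 10979 control-specific and 16407 depleted-specific. The promoter class took 28.7% of common, 5.71% of control-specific and 15.1% of depleted-specific proteasome peaks, close to the 28.4%, 6.55% and 13.2% of all peaks nearest to a protein-coding gene. By annotation, 118 of the 196 peaks outside promoters were intronic, 59 intergenic, 13 exonic or in untranslated regions, and 6 at transcript ends.

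The 117 peaks of PSMA6 spread over 143 kb at chr14:35205345-35348034, with a median gap of 954 bp between neighbouring centres. That made 8.20 peaks per 10 kb, compared with 8.96 for PSMB11 and 7.75 for PSMB5 on the same chromosome. PSMA6 ranked 19 among 10676 protein-coding genes by its number of peaks, where the median was 2.00 peaks and the highest number 455. Of its 116 peaks outside the promoter, 55 were placed by the annotation in transcripts of PRORP, a mitochondrial RNase P subunit gene next to it, 34 in PSMA6 itself and 27 in no gene. The tags ranged from 13 to 35 in the common peaks, from 13 to 24 in the control-specific and from 10 to 21 in the depleted-specific peaks. None of these peaks reached the 47 tags of the PSMA6 promoter, and the control-specific and depleted-specific peaks were about equal in number. Chromosome 14 as a whole also held similar numbers, with 3324 control-specific and 3416 depleted-specific peaks.

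Beyond PSMA6, PSMF1 was the nearest gene of 19 peaks, all outside its promoter (4 common, 8 control-specific and 7 depleted-specific), over 90.4 kb of chromosome 20. PSMB5 had 11 peaks and PSMB11 had 9, and these neighbours on chromosome 14 each had peaks from all 3 lists within 14.2 and 10.0 kb. PSMG4 had 8 peaks, PSMA7 had 7, and PSMD1 and PSMD14 had 6 each. Only 8 of the 196 peaks lay outside the peak-rich chromosomes, at PSMB7 and PSMD8 (common), PSMC2 and PSMD4 (control-specific) and PSMA1, PSMA4, PSMD9 and PSMG1 (depleted-specific). The share on peak-rich chromosomes was 95.9%, and 72 of 80 without PSMA6, compared with 74.0% of all such protein-coding peaks. Of the genes themselves, 28 of 50 lie on these chromosomes, compared with 5468 of 20037 protein-coding genes.

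**Figure D4:**
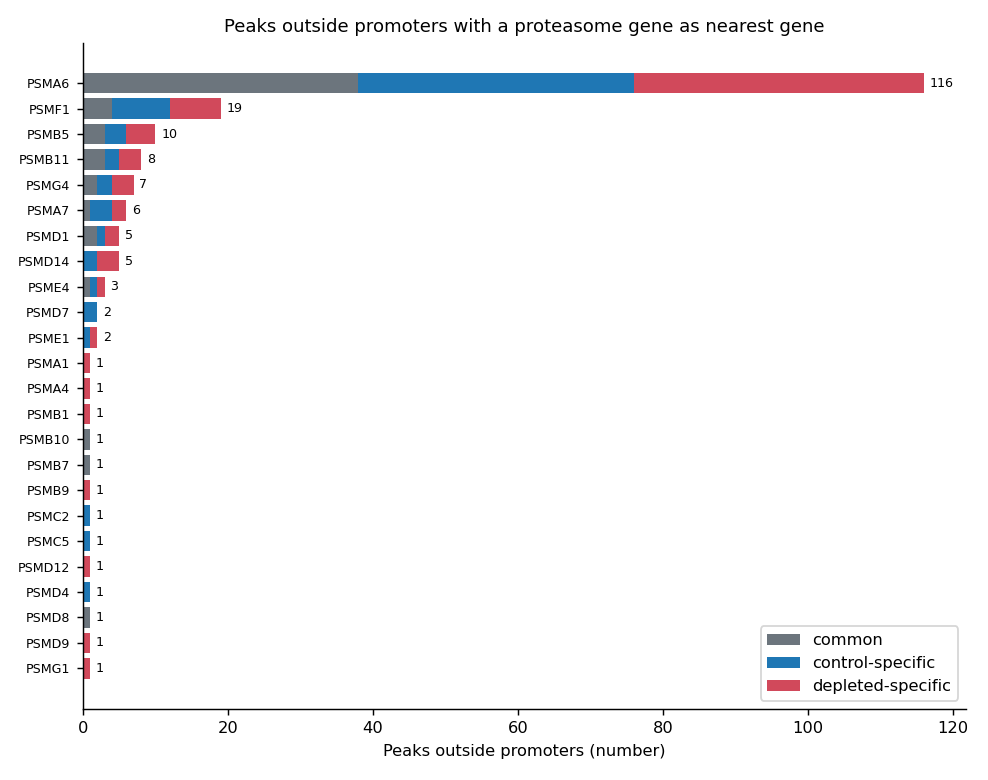
Number of peaks outside promoters for each proteasome gene that had any, stacked by list (grey common, blue control-specific, red depleted-specific), with the total at the end of each bar. PSMA6 has 116 and PSMF1 19, and 13 genes have 1 each.

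The letters of known promoter motifs were about as frequent in proteasome promoter peaks as in others. Over all 3 lists, the Sp1 box GGGCGG was found in 62.5% of the 40 proteasome promoter peaks and in 64.1% of 6392 protein-coding promoter peaks, and CCAAT in 40.0% and 45.2%. The ETS letters CCGGAAG were found in 12 of 40 (exact 95% interval 16.6% to 46.5%) and 19.6%. The letters TGANNNNGC, a loose form of the antioxidant response element, were found in 50.0% and 45.0%. Such a match does not show a site of NFE2L1 or NFE2L2. TGACGTCA, the cyclic AMP response element, was found in 2.50% and 3.19%. The consensus of NRF1, the nuclear respiratory factor, gave 3 of 40 and 11.6%, and ATGGCGGC, for YY1, 5.00% and 5.19%. Motifs were searched on both strands over the whole peak, and matches could overlap each other, as TGANNNNGC and an Sp1 box can.

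Among the 13 depleted-specific promoter peaks, 8 held the Sp1 box (61.5%, against 66.7% of all depleted-specific protein-coding promoter peaks). The ETS letters were in 5 (38.5%, 13.9 to 68.4, against 17.9%), those of PSMB1, PSMC1, PSMC2, PSMC6 and PSMD6. CCAAT and the letters TGANNNNGC were in 5 each (38.5%, against 41.0% and 44.6%). In the 23 common peaks the letters TGANNNNGC were in 14 (60.9%, 38.5 to 80.3, against 46.5%) and the Sp1 box in 17 (73.9%, against 66.2%). Each of these backgrounds lay within the exact interval of the proteasome share. The 4 control-specific promoter peaks held no Sp1, CCAAT or ETS letters, where 47.3%, 35.6% and 15.2% of all control-specific promoter peaks did, and 4 peaks allow a share of up to 60.2%.

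**Figure D5:**
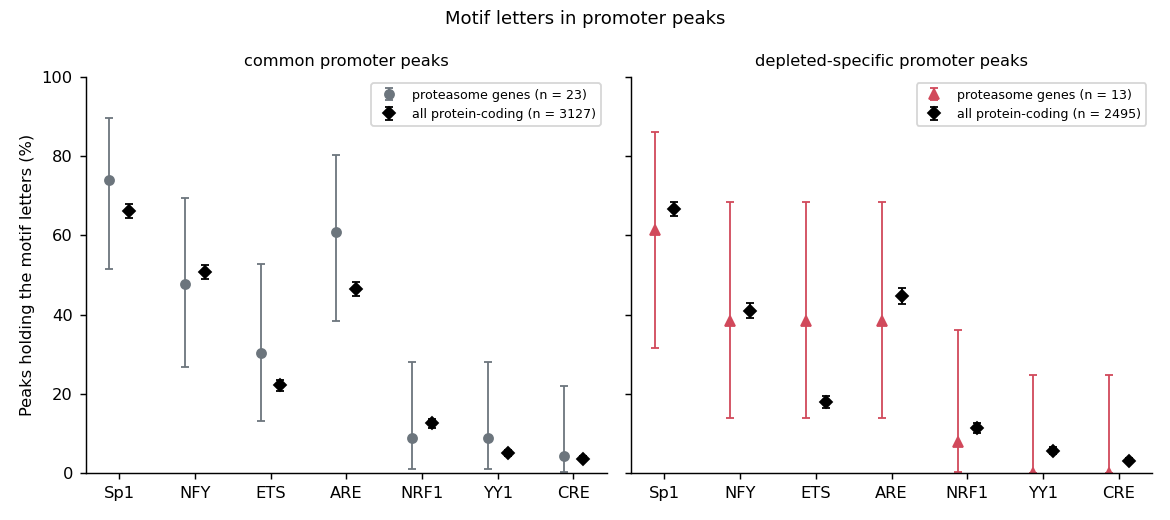
Share (%) of common (left) and depleted-specific (right) promoter peaks that hold the letters of each motif, for the proteasome genes (coloured) and all protein-coding genes (black diamonds), with exact 95% intervals. The intervals of the proteasome genes are wide and include the protein-coding share for each motif shown.

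Other genes of the pathway gave promoter peaks in the common and depleted-specific lists. Of 12 subunits and associated proteins outside the PSM names, 4 had a common promoter peak, namely ADRM1 (a ubiquitin receptor), UCHL5 (its deubiquitinase), AKIRIN2 and TXNL1. SEM1, the small lid subunit, had a depleted-specific one with 14 tags, and 0 of the 12 had a control-specific one, while 7 had no promoter peak. Over all protein-coding genes the shares were 15.0% (common), 11.9% (depleted-specific) and 3.73% (control-specific).

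Of 11 transcription factors and proteins that process them, 4 had a common promoter peak, 4 a depleted-specific one and 0 a control-specific one, and 3 had none, against the same 15.0%, 11.9% and 3.73% of all genes. The 3 without a promoter peak were NFE2L3 and the small MAF genes MAFG and MAFK. NFE2L1 had a common promoter peak with 22 tags and NFE2L2 one with 19 tags. VCP and SEL1L, which help to extract NFE2L1 from the endoplasmic reticulum, also had common ones. Depleted-specific promoter peaks were listed for DDI2, the protease that cleaves NFE2L1 (11 tags), NGLY1, which removes its sugars (12 tags), SYVN1, a ubiquitin ligase of the same organelle (17 tags), and MAFF, a small MAF partner (24 tags). The peak of MAFF thus held more tags than any depleted-specific promoter peak of the subunit genes, where the highest number was 19.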

How the data were processed

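FAIRE-seq was analysed in 2 HepG2 libraries, 1 scrambled control and 1 NR2E3-depleted. Per the submitters' processing notes the tools were bcl2fastq 2.17, Trimmomatic 0.39, Bowtie2 2.4.5 and SAMtools 1.14 with hg38. For later steps, the study's methods name HOMER for peak calling, and the file headers name its annotatePeaks program for annotation. The rule that separated common from specific peaks, and any correction for input or copy number, is not given in the sources used here.

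The deposited peak score is a signal, a scaled tag number, and the deposited distance to the TSS is in bp from the peak centre. Tags were recovered as score over the step of each list, since 100% of scores under 10 were whole multiples of it within 0.006. HOMER gives the promoter class relative to any transcript and the gene name by the nearest TSS. The nearest gene, its type and the class were taken as deposited.

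Genes were counted against 20037 protein-coding genes of the RefSeq table, in which 107 of the 10676 protein-coding symbols of the lists were not found. For all protein-coding and ribosomal protein genes, older symbols were mapped to current ones through synonyms. The proteasome genes were counted under the listed names, as the rule takes them. PSME3IP1 therefore counts as a proteasome gene without a promoter peak. GENCODE 44 gave MANE Select starts, and hg38 gave sequences. A library was credited with its specific and the common peaks. Tags have exact Poisson and shares exact Clopper-Pearson 95% intervals, which cover counting error only, since reads carried no molecular identifiers. Computation used scipy 1.17.1, pandas 2.3.3 and numpy 2.4.6 in Python 3.11.15, with matplotlib 3.10.9 for plots, and the counting was tested on simulated lists.

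With 1 library per group no p-value was computed. Named with values were members with a specific promoter peak or with promoter peaks in more than 1 list, the 5 highest and 3 lowest common ones, and members with peaks outside promoters. Other common promoter peaks, and the pathway genes, are given by their tags as well. Genes of ubiquitin and its shuttles are not reported here. Members, subcomplexes and comparison lists were chosen with earlier results of these data known. Alternatives changed the score minimum, promoter definition, gene assignment and chromosomes. The MANE Select assignment and the promoter class for the member's own transcript were chosen after seeing the data.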

Additional observations from a re-analysis of the deposited data

How the results depend on the processing

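No paired analysis was possible because 1 control library faced 1 NR2E3-depleted library, and no replicate could be left out. Of the recomputed values, 58 stayed within 1.5 times the reported count or within the spread of the value, and 16 moved. Without chromosomes 2, 6, 14, 16, 17 and 20, proteasome genes with a promoter peak numbered 5 (common), 0 (control-specific), 6 (depleted-specific), 5 (control library) and 11 (depleted library), and peaks outside promoters 2, 2 and 4. The fewer chromosomes lower each count. The 4 genes with a control-specific promoter peak became 2 at a score of at least 6, 2 within 500 bp of the TSS, 10 within 3000 bp, 10 within 1000 bp of any GENCODE start, 7 at MANE Select starts, 2 with the class given for the gene's own transcript, and 1 without peaks near one of the other library. Control-specific peaks outside promoters fell to 38 at a score of at least 6. The counts of common and depleted-specific promoters moved by over 1.5 times only without those chromosomes, among the alternatives run. Depth limits the lists, since the fewest tags of a listed peak were 10 in the control-specific and 8 in the depleted-specific list, and the depth of the depleted library was 0.802 of the control, if both share a scale. A peak missing from a list was therefore not detected at this depth, and is not shown to be absent.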
